A study of Homo sapiens with 5 samples.

Results

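The genes described here encode the claudins CLDN1, CLDN4, CLDN7 and CLDN12, the 4-span proteins OCLN and MARVELD2, the adhesion molecule F11R, and the scaffolds TJP1 and TJP3, all of which are proteins of the tight junction. The 9 genes were taken from a list of names, chosen with earlier results of these data known. Single-symbol probe sets, those that the platform annotation assigns to 1 gene, were found for 8 of the 9, with 16 probe sets in all, among 19775 genes with such a probe set. F11R was not analysed here, and 1 probe set shared between CLDN12 and another gene was left out.

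Tight junctions seal the space between neighbouring epithelial cells at the border of the apical and lateral membrane. Claudins form the strands of the seal and set which ions pass, occludin and tricellulin (MARVELD2) stabilise the strands where cells meet, and ZO proteins such as TJP1 and TJP3 tie the strands to actin. Carcinoma cells that take on mesenchymal features often lose part of this set.

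RNA of PC-3, a human prostate carcinoma line that grows without androgen, was hybridised to 5 Affymetrix arrays. Per the labels, 1 array held cells from spheroid culture and 1 held cells from ordinary flat culture (2D). A further 2 arrays held cells with different short hairpin RNAs against TRIB1, labelled shTRIB1-1 and shTRIB1-2, and 1 held cells with a control hairpin against GFP (shGFP). The design asks which genes depend on growth in 3 dimensions and which on TRIB1, a pseudokinase that recruits a ubiquitin ligase to its targets. The labels give 1 growth protocol, in dishes, to every sample, so they do not tell how the spheroids in particular were grown. The sources used here do not give how the hairpins were delivered, or whether a hairpin line was a pool or 1 clone. Nothing in the labels says that the 2 shTRIB1 arrays came from separate cultures, so p-values measure only the spread between these arrays.

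Values are levels, the log2 of the deposited RMA intensity, and a difference of 1 is 2-fold. A level under 6 is treated as near background. A level can be compared between arrays for 1 probe set but not between probe sets or genes. The arrays had median intensities between 32.97 and 33.36. TRIB1 itself had a level of 11.91 and 11.76 on the labelled arrays shTRIB1-1 and shTRIB1-2, against 11.97 on the shGFP array. It was at 11.23 on the spheroid array and 11.04 on the 2D array, below all 3 hairpin arrays. The labels of the hairpin arrays are thus not borne out by this messenger RNA, and each direction below is that of the labelled array. The 5′ signal of the actin control probes divided by their 3′ signal was 0.131 on the spheroid array and 0.184 on the 2D array, but between 0.436 and 0.445 on the 3 hairpin arrays. In this measure the hairpin arrays and the arrays without a hairpin form 2 sets. The same ratio for GAPDH was 0.763 on the spheroid array, 0.895 on the 2D array and between 0.929 and 0.944 on the hairpin arrays, so there the spheroid array stood apart. Both ratios were lower on the spheroid array than on the 2D array, and their part in the differences between these arrays was not tested.

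Epithelial markers were present on every array: the keratins KRT8, KRT18 and KRT19 and the adhesion molecule EPCAM had levels of 9.39 to 12.48 on the spheroid array and of 10.17 to 13.04 on the 2D array. All 4 were lower on the spheroid array, by 0.37 to 0.79, while the filament protein VIM was at 12.22 on the spheroid array and 12.48 on the 2D array. Of 7 markers of fibroblasts, blood and endothelium, 2 reached a level of 6 on the spheroid array and 2 on the 2D array, and their summed level was 36.34 on the spheroid array, 33.95 on the 2D array and between 32.59 and 33.40 on the hairpin arrays. Of these, PECAM1 was at 9.53 on the spheroid array and 7.57 on the 2D array. Without PECAM1 the sums were 26.81 on the spheroid array and 26.38 on the 2D array. CDH5, the defining endothelial cadherin, was near background with 3.32 on the spheroid array and 3.40 on the 2D array.

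**Figure D1:**
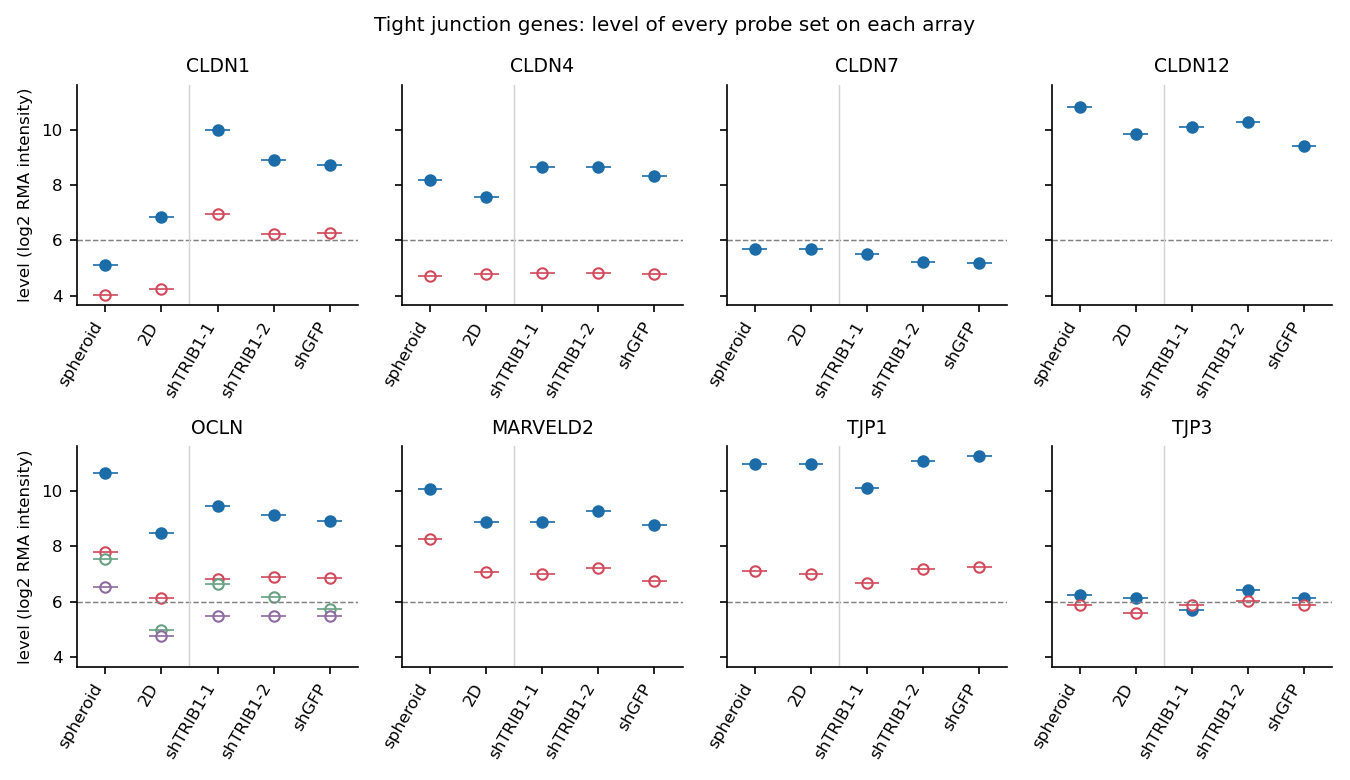
Level (log2 RMA intensity, vertical axis) of the 16 probe sets of 8 tight junction genes on each of the 5 arrays (horizontal axis); filled points are the representative probe set of a gene, open points the others, the dashed line marks a level of 6, and the vertical line separates the arrays without and with a hairpin. The spheroid array holds the highest point of each OCLN and MARVELD2 probe set and the lowest of each CLDN1 probe set.

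Spheroid and 2D cells were compared to find how the tight junction genes differed with growth in 3 dimensions. OCLN and MARVELD2 were higher in the spheroid array by 2.17 and 1.18, CLDN12 by 0.98, and CLDN1 was lower by 1.72, whereas TJP1, TJP3 and CLDN7 differed by at most 0.10. Each culture had 1 array, so these differences have no replicate check and no test, and fewer cells that express a gene cannot be told apart from less RNA per cell. Of the 7 members that reached a level of 6 on either array, 2 were at least 2-fold higher, where 5.05% of the 10570 genes that did so were. At least 2-fold lower was 1, CLDN1, where 5.23% were. CLDN1 reached 6 on the 2D array alone, so it had to differ in this direction. The median difference was 0.60 over these 7 members and 0.35 over all 8, beside -0.0083 over all genes that passed the same filter.

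OCLN, occludin, is a strand protein with 4 membrane spans. Its representative probe set had a level of 10.65 on the spheroid array and 8.48 on the 2D array, a difference of 2.17 (4.51-fold). The other 4 arrays lay below the spheroid array, at 9.47 and 9.14 for shTRIB1-1 and shTRIB1-2, 8.91 for shGFP and 8.48 for 2D. Of the genes tested, 0.804% had a larger positive difference between spheroid and 2D. The step from the spheroid array to the next array in this order was 1.18, wider than the range of 0.56 over the 3 hairpin arrays. In this representative probe set the 2D array lay 0.43 below shGFP, which is less than that range. In the other OCLN probe sets the 2D array lay 0.74, 0.77 and 0.73 below shGFP. For the first of these the hairpin arrays lay between 6.83 and 6.88, so the gap there was wider than their range.

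All 4 OCLN probe sets were highest on the spheroid array and lowest on the 2D array. The second probe set had levels of 7.78 on the spheroid array and 6.13 on the 2D array, a difference of 1.65. The third had 7.54 on the spheroid array and 4.99 on the 2D array, and the remaining one had 6.53 on the spheroid array and 4.77 on the 2D array. Their differences of 2.55 and 1.76 rest on a 2D signal near background. A transcribed pseudogene, OCLNP1, is listed in RefSeq, and the sources used here do not say whether the probes distinguish it from OCLN.

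MARVELD2, tricellulin, concentrates where 3 cells meet. It had a level of 10.06 on the spheroid array and 8.89 on the 2D array, a difference of 1.18 (2.26-fold). The second probe set gave 8.25 on the spheroid array and 7.08 on the 2D array, also a difference of 1.18. Among the hairpin arrays the levels were 8.89 for shTRIB1-1, 9.27 for shTRIB1-2 and 8.79 for shGFP. The spheroid array was thus 0.79 above the next highest array, more than the range of 0.49 over the 3 hairpin arrays, and the 2D, shTRIB1-1 and shGFP arrays lay within 0.10 of each other.

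MARVELD2 and OCLN follow each other on chromosome 5 among the protein-coding genes of the RefSeq table (GRCh38.p14). The measured protein-coding genes that precede MARVELD2 were looked up after the values of both genes had been seen. RAD17, a checkpoint protein, had a level of 9.96 on the spheroid array and 9.43 on the 2D array, a difference of 0.54. AK6 differed by 0.33, CCDC125 by 0.44, the kinase CDK7 by 0.50 and KGD4 by 0.011. All 5 were higher in the spheroid array, KGD4 barely so, and none reached 2-fold. Among all genes that passed the level filter, 4996 of 10570 were higher in the spheroid array. The next 6 genes after OCLN were not analysed here.

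**Figure D2:**
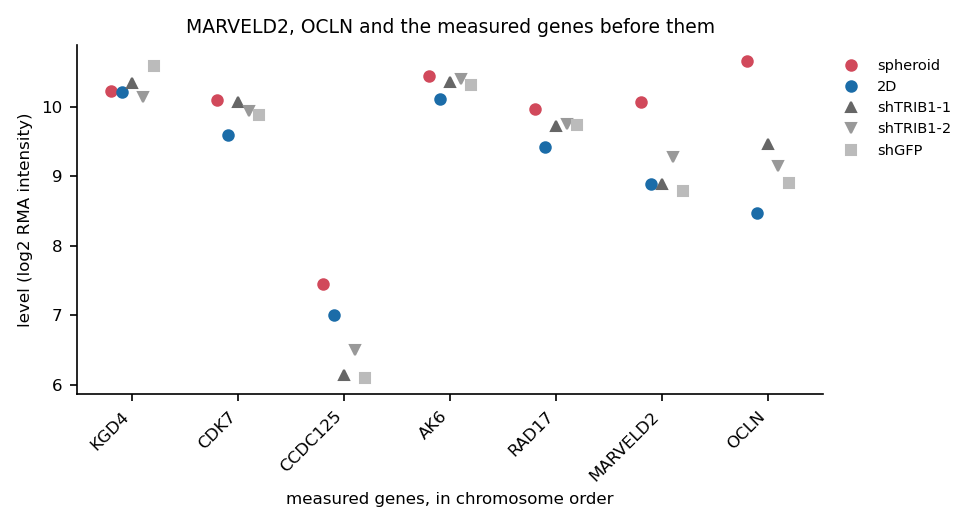
Level (log2 RMA intensity, vertical axis) of MARVELD2, OCLN and the 5 measured genes before them in chromosome order (horizontal axis), 1 point per array. The spheroid and 2D points lie 2.17 apart for OCLN and 1.18 apart for MARVELD2, and at most 0.54 apart for the others.

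CLDN1, a barrier-forming claudin that mice need for the skin barrier, differed in the opposite direction. It had a level of 5.12 on the spheroid array and 6.84 on the 2D array, a difference of -1.72 (3.30-fold). The spheroid value is below 6, so the size of this difference rests on a signal near background. With 2D and shGFP averaged as the control it was -2.66. The second CLDN1 probe set, at 4.03 on the spheroid array and 4.24 on the 2D array, was near background on both and differed by -0.21. Of genes tested, 1.85% had a larger negative difference than the representative probe set. This probe set passed the level filter through the 2D array alone, so it had to differ in this direction, and the share lends no support.

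CLDN12, a claudin that lacks the usual carboxy-terminal binding motif for ZO proteins, had a level of 10.80 on the spheroid array and 9.83 on the 2D array, a difference of 0.98 (1.97-fold), just inside the 2-fold limit. Its spheroid value was the highest of the 5 arrays by 0.52, which is less than the range of 0.89 over the 3 hairpin arrays. CLDN4, a claudin that tightens the barrier to sodium ions, was at 8.16 on the spheroid array and 7.56 on the 2D array, a difference of 0.60. Its 2D array was the lowest of the 5, and the spheroid array lay 0.16 below shGFP. The second CLDN4 probe set was between 4.72 and 4.82 on all 5 arrays and carries little information.

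The scaffolds and CLDN7 differed by at most 0.10 in their representative probe sets. TJP1 (ZO-1), which links claudins to actin, was at 10.98 on the spheroid array and 10.96 on the 2D array, and its second probe set was at 7.10 on the spheroid array and 7.01 on the 2D array. TJP3 (ZO-3) was at 6.23 on the spheroid array and 6.14 on the 2D array, close to background. CLDN7, a claudin of glandular epithelia, was at 5.67 on the spheroid array and 5.68 on the 2D array, and it stayed under 6 on every array, with 5.51 on shTRIB1-1, 5.22 on shTRIB1-2 and 5.18 on shGFP.

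Counted by probe set, 12 of the 16 reached a level of 6 on either array. Of these, 6 were higher by 2-fold or more with spheroid growth, all of them of OCLN or MARVELD2, beside 5.52% of 18423 probe sets. Of the 6, 2 OCLN probe sets were under 6 on the 2D array and passed through the spheroid array alone, so they had to differ in this direction, and the count lends no support. The 1 that was at least 2-fold lower was that of CLDN1, beside 4.93%. It was under 6 on the spheroid array and passed through the 2D array alone. Probe sets of 1 gene share its RNA and are not replicates. The spheroid array lay above all 4 other arrays for 3 of 7 members with a level of at least 6 on any array (OCLN, MARVELD2 and CLDN12), where 24.9% of 10843 genes did so, and below all 4 for 1 (CLDN1), where 28.1% did. On representative probe sets it was at least 2-fold above all 4 others for OCLN alone among the members, as for 1.6% of genes. On the second MARVELD2 probe set the spheroid array was 1.03 above the highest other array. On the OCLN probe sets other than the representative it was 0.90, 0.91 and 1.04 above.

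**Figure D3:**
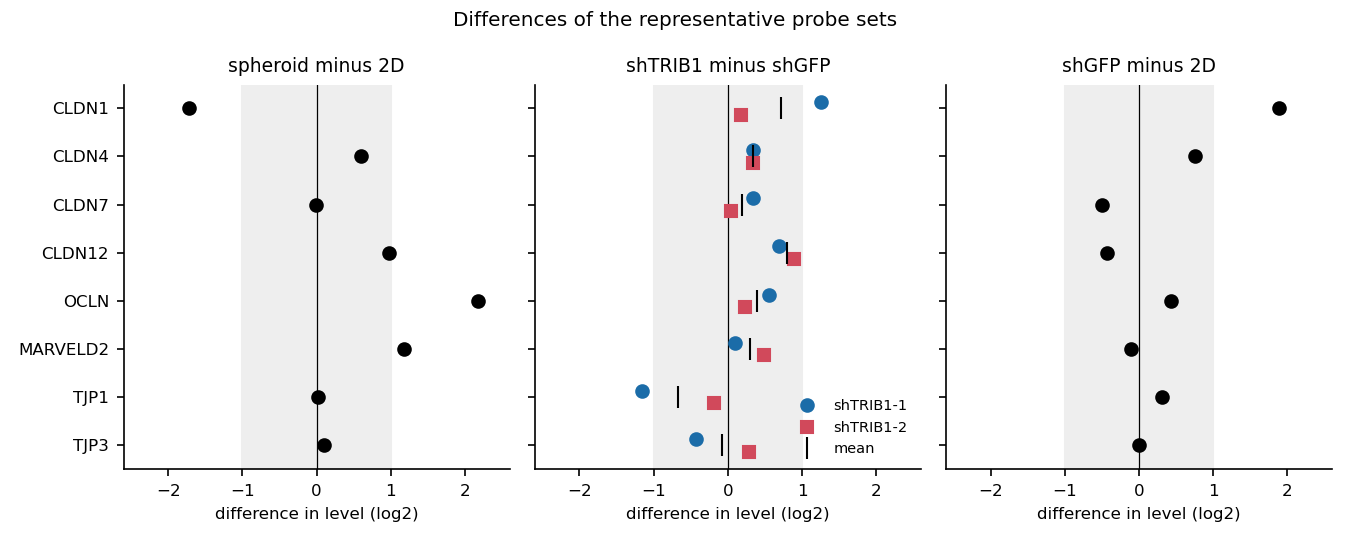
Difference in level (log2, horizontal axis) of the representative probe set of each of 8 genes (vertical axis) for spheroid minus 2D, for each shTRIB1 array minus shGFP with the mean as a tick, and for shGFP minus 2D; the grey band holds differences under 2-fold. OCLN at 2.17 and MARVELD2 at 1.18 lie right of the band and CLDN1 at -1.72 left of it in the first panel, and CLDN1 lies right of it at 1.88 in the last.

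RefSeq sequence around the start sites is shown for OCLN, MARVELD2 and CLDN1, the members that differed at least 2-fold, so that the region from which each transcript starts can be read. All 8 measured genes matched the promoter table. Each run covers 250 bases before to 30 bases after an annotated start site in GRCh38.p14. Capitals mark the E-box CAGGTG on either strand (CACCTG on the other), the binding sequence of SNAI and ZEB repressors, and ACCGGT, which reads alike on both strands and is the core of the sequence bound by Grainyhead-like (GRHL) factors.
OCLN, chr5:69492297-69492576, + strand: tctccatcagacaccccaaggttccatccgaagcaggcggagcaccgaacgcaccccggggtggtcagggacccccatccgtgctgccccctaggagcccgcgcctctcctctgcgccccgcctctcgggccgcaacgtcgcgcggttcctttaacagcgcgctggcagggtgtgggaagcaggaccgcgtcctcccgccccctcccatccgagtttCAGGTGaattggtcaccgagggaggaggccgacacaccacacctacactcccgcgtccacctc
MARVELD2, chr5:69414866-69415145, + strand: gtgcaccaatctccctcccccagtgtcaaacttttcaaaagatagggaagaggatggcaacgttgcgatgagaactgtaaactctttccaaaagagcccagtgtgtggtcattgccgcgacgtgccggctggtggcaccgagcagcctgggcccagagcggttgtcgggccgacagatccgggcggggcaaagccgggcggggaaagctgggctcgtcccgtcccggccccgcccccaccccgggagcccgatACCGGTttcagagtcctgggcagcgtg
CLDN1, chr3:190322417-190322696, - strand: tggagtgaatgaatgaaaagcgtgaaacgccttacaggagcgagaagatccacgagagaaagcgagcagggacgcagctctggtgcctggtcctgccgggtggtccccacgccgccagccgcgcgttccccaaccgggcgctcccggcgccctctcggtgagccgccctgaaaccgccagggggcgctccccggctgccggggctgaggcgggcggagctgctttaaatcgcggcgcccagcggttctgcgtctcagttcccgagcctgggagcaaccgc

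The OCLN run held 1 E-box, which began at position -33 from the start site. The MARVELD2 run held 1 ACCGGT, which began at position 4. The CLDN1 run held neither. An E-box was found in 19.2% of 35116 windows of the same length in the table, and ACCGGT in 1.67%. A second annotated OCLN start, at chr5:69492540-69492819, also held 1 E-box. Among the members that did not differ 2-fold, 1 window each of CLDN7, TJP1 and TJP3 held 5, 1 and 1 E-boxes. Their other windows and those of CLDN4 and CLDN12 held none. The GC box GGGCGG on either strand was found once in the OCLN run, 3 times in the MARVELD2 run and 2 times in the CLDN1 run, and in 44.1% of windows. TATAAA was found in none of these runs and in 11.2% of windows. A match is a match of letters and not evidence of binding.

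The labelled arrays shTRIB1-1 and shTRIB1-2 were then set against the shGFP array to find tight junction genes that depend on TRIB1. No member differed 2-fold the same way on both arrays, where 0.447% of 10522 genes did. CLDN12 was the most alike between the hairpins among the larger differences, 0.79 higher on average, and TJP1 and CLDN1 differed mainly on the array labelled shTRIB1-1. Of 7 members with a level of at least 6 on any of the 3 arrays, 5 were higher on both and 1 was lower on both. Among the 10522 genes, 2634 were higher on both and 3655 were lower on both, so that 59.8% had the same sign on both. The 2 differences of a gene share the 1 shGFP array, so a shift in that array gives the same sign on both. The median over the 7 members was 0.34, beside -0.027 over all genes tested.

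Limma with a variance trend, adjusted by Benjamini-Hochberg over all 10522 genes, called 0 members and 0% of genes. The fit has 1 residual degree of freedom, which comes from the difference between the shTRIB1 arrays. Adjusted p-values of the members from limma were between 0.951 and 0.992. At an unadjusted p under 0.05, limma held 1 member, CLDN12, and 3.38% of the genes tested.

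CLDN12 had a level of 10.09 on the array labelled shTRIB1-1 and 10.28 on that labelled shTRIB1-2, against 9.39 on the shGFP array. The differences were 0.69 and 0.89, a mean of 0.79 ± 0.14 (SD, n = 2), or 1.73-fold, with a limma adjusted p of 0.951. The SD covers the 2 shTRIB1 arrays only and not the spread of the single shGFP array. The shGFP array was the lowest of the 5 for this gene, and against the 2D array the differences were 0.26 and 0.45.

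TJP1 had a level of 10.10 on the array labelled shTRIB1-1 and 11.07 on that labelled shTRIB1-2, against 11.26 on the shGFP array. The array labelled shTRIB1-1 was the lowest of the 5, and the other 4 lay between 10.96 and 11.26. Relative to shGFP it differed by -1.16 and -0.19, on average by -0.68 ± 0.69 (SD, n = 2). The second TJP1 probe set showed the same order, at 6.67 and 7.18 on the labelled arrays shTRIB1-1 and shTRIB1-2 and 7.27 on the shGFP array. The shTRIB1 arrays differed from each other by -0.97, more than their mean differed from shGFP, and the mean was not called (limma adjusted p = 0.958).

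CLDN1 had a level of 9.97 on the array labelled shTRIB1-1 and 8.89 on that labelled shTRIB1-2, against 8.72 on the shGFP array. The differences were 1.25 and 0.17, a mean of 0.71 ± 0.76 (SD, n = 2), with a limma adjusted p of 0.958. Its second probe set gave 6.94 and 6.24 on the labelled arrays shTRIB1-1 and shTRIB1-2 and 6.25 on the shGFP array. Only CLDN1 and TJP1 among the members were past 2-fold on the array labelled shTRIB1-1, where 3.86% of genes were, and no member was past it on the array labelled shTRIB1-2, where 2.16% were.

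The other members differed less. CLDN4 was at 8.66 and 8.65 on the labelled arrays shTRIB1-1 and shTRIB1-2 and at 8.32 on the shGFP array, a mean difference of 0.34 ± 0.0066 (SD, n = 2). OCLN was at 9.47 and 9.14 on the labelled arrays shTRIB1-1 and shTRIB1-2 and at 8.91 on the shGFP array, a mean difference of 0.40 ± 0.23 (SD, n = 2), while its other probe sets differed by means of -0.021, 0.65 and 0. MARVELD2 differed by a mean of 0.29 ± 0.27 (SD, n = 2). TJP3 was at 5.70 and 6.42 on the labelled arrays shTRIB1-1 and shTRIB1-2 and at 6.14 on the shGFP array, so the hairpins lay on opposite sides of the control.

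The shGFP array was also set against the 2D array, since both serve as controls. They differ by the control hairpin and in the actin ratio given above. The labels give 1 growth protocol, in dishes, to every sample, the spheroids included. CLDN1 was at 8.72 on the shGFP array and 6.84 on the 2D array, a difference of 1.88 (3.69-fold). Its second probe set gave 6.25 on the shGFP array and 4.24 on the 2D array, a difference of 2.01. In this comparison that probe set reached a level of 6 through the shGFP array alone. It thus had to differ in this direction and lends no support. CLDN1 was the 1 member of 7 at least 2-fold higher, beside 2.13% of 10450 genes, and none was at least 2-fold lower, beside 2.11%. Only 0.316% of genes had a larger positive difference. All 3 hairpin arrays lay above both arrays without a hairpin for CLDN1, and this actin ratio (0.436 to 0.445 with a hairpin, 0.131 and 0.184 without) separated the same arrays. The part of this ratio in the CLDN1 difference between the controls was not tested. That difference shares the 2D array with the comparison of spheroid and 2D, where CLDN1 differed by -1.72.

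CLDN4 was likewise at 8.32 on the shGFP array and 7.56 on the 2D array, a difference of 0.76. OCLN differed by 0.43 in its representative probe set and by 0.74, 0.77 and 0.73 in its others. CLDN12 was at 9.39 on the shGFP array and 9.83 on the 2D array, a difference of -0.43. TJP1 differed by 0.30, MARVELD2 by -0.10 and TJP3 by 0. The difference between the controls was thus under 1 for every measured member except CLDN1.

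CLDN1 and OCLN had the widest ranges of level over the 5 arrays among the members, 4.85 and 2.17. Genes of like pattern were ranked by the root mean square difference of levels over the 5 arrays, after each gene was centred on its own mean, among 10842 genes. Nearest to CLDN1 were NEXN, an actin-binding protein, at 0.31, the cadherin CDH11 at 0.44 and the elastase inhibitor PI3 at 0.45. NEXN was at 5.19 on the spheroid array, 6.23 on the 2D array, 9.11 and 8.37 on the labelled arrays shTRIB1-1 and shTRIB1-2 and 8.06 on the shGFP array. Nearest to OCLN were PIGL, an enzyme of membrane anchor synthesis, at 0.088, MAGEH1 at 0.11 and the retinol dehydrogenase SDR16C5 at 0.12. PIGL was at 9.04 on the spheroid array, 7.11 on the 2D array, 7.95 and 7.65 on the labelled arrays shTRIB1-1 and shTRIB1-2 and 7.51 on the shGFP array. With 5 arrays, many genes can share an order, so this ranking is a description alone.

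Most of the other claudins were near background. Of 16 measured, 4 reached a level of 6 on the spheroid or the 2D array, 2 of them higher and 2 lower with spheroid growth. The median difference of these 4 was 0.21, beside -0.0083 over all genes. Over all 16 it was -0.049. By 2-fold or more 1 of the 4 was higher, beside 5.05% of genes. This was CLDN10, whose splice forms make pores for cations or anions, at 9.15 on the spheroid array and 6.96 on the 2D array, a difference of 2.19. On the hairpin arrays CLDN10 was at 5.24 and 5.78 for shTRIB1-1 and shTRIB1-2 and 5.63 for shGFP, all under 6. CLDN10 thus exceeded every array with a hairpin in both cultures without one.

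Other gene groups of cell junctions were counted in the same way for spheroid against 2D. Of 10 other tight junction membrane and scaffold genes that reached a level of 6, 5 were higher and 5 lower with spheroid growth, none past 2-fold, and their median was -0.015. Of 12 polarity genes 6 were higher and 6 lower, none past 2-fold, with a median of -0.0048. Of 6 adherens junction genes 3 were higher and 3 lower, none past 2-fold, with a median of -0.044. E-cadherin (CDH1) was at 10.59 on the spheroid array and 10.51 on the 2D array. On the labelled arrays shTRIB1-1 and shTRIB1-2, CDH1 was 1.37 and 0.53 above the shGFP array. On both arrays labelled shTRIB1 against shGFP, no gene of these 3 lists or of the other claudins differed 2-fold the same way, and limma called 0 of them, with 1, the polarity gene PARD6B (differences of 0.80 and 0.74), at an unadjusted p under 0.05.

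Of 8 transcription regulators of epithelial junction genes that reached a level of 6, 5 were higher and 3 lower with spheroid growth. Their median was 0.35, beside -0.0083 over all genes. By 2-fold or more 2 of them were higher, beside 5.05% of genes. EHF, an ETS factor of epithelia, was at 9.31 on the spheroid array and 6.87 on the 2D array, a difference of 2.44. EHF spread widely between the hairpins, at 7.36 on the array labelled shTRIB1-1 and 9.83 on that labelled shTRIB1-2, against 8.83 on the shGFP array. ZEB1, a repressor of epithelial junction genes, was at 7.23 on the spheroid array and 6.23 on the 2D array, a difference of 1.00. On the array labelled shTRIB1-2 ZEB1 was at 7.46, above the spheroid array. SNAI2, another such repressor, was singled out after its values were seen, and it was at 6.55 on the spheroid array, 7.24 on the 2D array, 10.41 and 8.96 on the labelled arrays shTRIB1-1 and shTRIB1-2 and 9.43 on the shGFP array. Like CLDN1, SNAI2 was highest on the array labelled shTRIB1-1 and lowest on the spheroid array, where 28.1% of 10843 genes were lowest. On the array labelled shTRIB1-2 against shGFP the 2 genes differed in opposite directions, CLDN1 by 0.17 and SNAI2 by -0.47. No regulator differed 2-fold the same way on both arrays labelled shTRIB1, and limma called none of the 8, with 0 at an unadjusted p under 0.05.

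**Figure D4:**
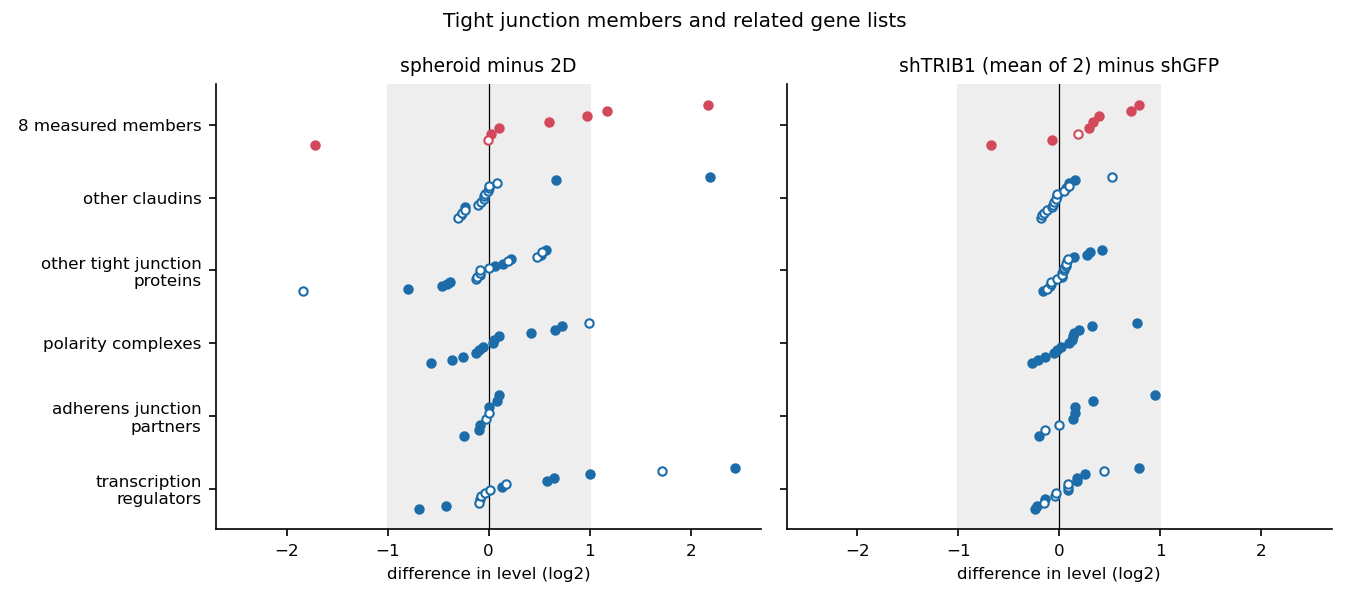
Difference in level (log2, horizontal axis) of the 8 measured tight junction members and of the genes of 5 related lists (rows) for spheroid minus 2D and for the mean of the shTRIB1 arrays minus shGFP; each point is a gene, filled where its level reached 6 on any compared array, and the grey band holds differences under 2-fold. Filled points outside the band in the first panel are OCLN, MARVELD2 and CLDN1 among the members, CLDN10 among the other claudins, and EHF and ZEB1 among the regulators.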

How the data were processed

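The authors deposited 1 intensity per probe set, processed with RMA, per the submitters' processing notes. RMA corrects background, quantile-normalizes the arrays and summarises probes. Their size shows a linear scale. The sources used here do not name the RMA version or the chip definition. Quantile normalization hides a shift that moves most genes one way. Log2 was taken without an offset. Probe sets were named from the platform annotation, and symbols were checked by Entrez identifier against RefSeq (41043 of 41097 single-symbol probe sets matched, 0 updated). For each of 19775 genes the probe set of highest mean level was used, and a gene entered a comparison at a level of at least 6 on any compared array.

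Differences of 1 array against 1 had no test. The hairpin comparison used limma 3.58.1 in R 4.3.3 with an adjusted p threshold of 0.05, and the code was tested on simulated data. Members, gene lists and tests were chosen with earlier results of these data known. All members are named. List genes are named where they differed 2-fold in spheroid minus 2D or the same way on both hairpin arrays. CDH1, PARD6B, SNAI2 and the cell type markers are named outside this rule. The alternatives were other probe set rules, level filters of 8 or none, an offset of 16, median scaling, the mean of 2D and shGFP as control, no trend, and leaving out a shTRIB1 array. Arrays have no sequencing depth, and their number limits the precision.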

Additional observations from a re-analysis of the deposited data

How the results depend on the processing

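No paired analysis was possible because the control hairpin, 2D and spheroid groups hold 1 array each. The number of members at least 2-fold different between spheroid and 2D was 3, and 2 to 4 under the alternatives. CLDN1 left this comparison as the median over its probe sets and at a level filter of 8, and CLDN12 joined it against the mean of 2D and shGFP (1.19). The median difference of the members, 0.60, was 0.98 at a level filter of 8, 0.35 with no filter, 0.32 with an offset of 16 and 0.22 against the mean of 2D and shGFP. For the hairpins, the median of 0.34 was 0.57 against the mean of shGFP and 2D, and 0.28 to 0.34 when either array was left out. Against that mean, 1 member, CLDN1, was past 2-fold on both arrays, instead of 0. Limma called 0 members under every alternative, with adjusted p-values of 0.602 to 1. Of 149 recomputed values of single members, 3 changed sign, all of TJP1 or TJP3 with differences near 0. Median scaling changed no direction. The causes were not tested. Signals under a level of 6 limit CLDN7, TJP3, the lower CLDN1 values and 2 OCLN probe sets.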
